A study of Mus musculus with 2 samples.

Results

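Satellite cells are the resident stem cells of skeletal muscle. They lie between the muscle fiber and its basal lamina, stay quiescent in uninjured adult muscle, and give rise to myoblasts that fuse into fibers. The paired box factor Pax7 marks and maintains them, Myf5 and Myod1 are basic helix-loop-helix factors that commit cells to the myogenic lineage, and a set of adhesion molecules and receptors on their surface has been used to sort them. The 10 genes described here were taken as a fixed list of such identity genes: Pax7, Myf5, Myod1, Cdh15, Chodl, Fgfr4, Calcr, Vcam1, Sdc4 and Itga7. All 10 were among the 27998 genes of the deposited matrices and all 10 were detected in both libraries.

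The mononuclear cells came from C57BL/6J mice with no treatment or transgene given, and 10 mice were used in all. Cells of several animals were pooled by tissue into 1 quadriceps and 1 diaphragm library, and viable cells had been gated on light scatter only, so no antibody chose satellite cells. With 1 library per tissue there were no replicates and no test, and the 95% intervals below (exact Poisson for levels, exact binomial for shares and ratios) cover counting error only. Levels are given as UMIs (unique molecular identifiers, each a counted transcript) summed over the barcodes of a class and divided by all UMIs of the class, in CPM. Barcodes with at least 1000 UMIs were kept with no limit on mitochondrial UMIs, which left 5010 of 5159 quadriceps barcodes (median 9880.5 UMIs) and 2432 of 2499 diaphragm barcodes (median 11986 UMIs). Of these, 2839 (56.7%) and 768 (31.6%) were over 5% mitochondrial UMIs. The libraries shared 5 barcode sequences.

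The barcodes were clustered without the 10 genes, and clusters were named from other markers, so that the levels of the 10 genes took no part in forming the classes. A single cluster of 28 was satellite cell-like. In it, 11 of its 14 fixed markers were in at least 25% of barcodes and at least 4-fold above the lowest cluster. It held 204 quadriceps barcodes, which was 4.07% of that library (interval 3.54 to 4.66%), and 20 diaphragm barcodes, which was 0.822% (0.503 to 1.27%). Its leading genes were Chrdl2, Gal, Fam132b, Edn3 and Jsrp1. Median depth in the class was 5032 UMIs in quadriceps and 5644 UMIs in diaphragm, and the median mitochondrial share was 7.22% and 5.90%. Only 24 of the 204 and 4 of the 20 barcodes were within 5% mitochondrial UMIs. The comparison classes were fibro-adipogenic progenitor (FAP)-like barcodes, the matrix-producing stromal cells of muscle (2446 in quadriceps and 1594 in diaphragm), and Schwann cell-like barcodes, the glia of peripheral nerve (190 and 2). The 2 diaphragm Schwann cell-like barcodes were too few to compare. The summed level of 10 FAP markers was 6246 CPM in satellite cell-like and 74585 CPM in FAP-like barcodes of quadriceps, and 2495 and 67347 CPM in diaphragm. The part of RNA from FAPs in the satellite cell-like values was not tested.

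The 10 genes lie on 9 chromosomes of GRCm38 (GENCODE M21 annotation). Pax7 spans chromosome 4, 139737062 to 139833528 (minus strand), Myf5 chromosome 10, 107482908 to 107486134 (minus strand), Myod1 chromosome 7, 46376474 to 46379099 (plus strand), and Chodl chromosome 16, 78930948 to 78951733 (plus strand). Cdh15 spans chromosome 8, 122847966 to 122867397 (plus strand), and shares exon sequence with Gm20388 on its own strand. Gm20388 had 0 UMIs in both libraries, and reads that fit both genes could have been lost to either, so the level of Cdh15 is uncertain in that respect. Itga7 (chromosome 10, 128933818 to 128958282, plus strand) and Vcam1 (chromosome 3, 116109949 to 116129688, minus strand) meet exons of another gene on the opposite strand only.

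Because Myf5 and Myod1 bind E-boxes (CANNTG), the RefSeq promoter windows of the genes, 250 bases before to 50 after the annotated start in GRCm38.p6, were read for those letters. Windows were at hand for 7 of the 10 genes (8 windows, since Calcr has more than 1 start). Those of Pax7 and Myf5 are shown as transcription factors of the list whose windows held no match, and those of Cdh15 and Chodl as the windows with the most matches. Capitals mark CANNTG, which reads the same way on both strands and overlaps CAGCTG where that form occurs.
Pax7, chr4:139832919-139833218, minus strand: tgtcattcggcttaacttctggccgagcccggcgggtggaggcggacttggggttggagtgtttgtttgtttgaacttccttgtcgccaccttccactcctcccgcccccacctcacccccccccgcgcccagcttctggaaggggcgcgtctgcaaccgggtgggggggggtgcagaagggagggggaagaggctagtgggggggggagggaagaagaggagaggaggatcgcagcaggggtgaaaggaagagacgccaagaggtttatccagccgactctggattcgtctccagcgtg
Myf5, chr10:107486085-107486384, minus strand: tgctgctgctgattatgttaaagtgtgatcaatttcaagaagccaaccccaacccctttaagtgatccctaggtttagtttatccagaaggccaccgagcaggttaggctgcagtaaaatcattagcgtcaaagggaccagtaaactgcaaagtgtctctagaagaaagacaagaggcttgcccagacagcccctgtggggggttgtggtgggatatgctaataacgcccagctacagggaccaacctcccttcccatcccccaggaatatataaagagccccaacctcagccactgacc
Cdh15, chr8:122848124-122848423, plus strand: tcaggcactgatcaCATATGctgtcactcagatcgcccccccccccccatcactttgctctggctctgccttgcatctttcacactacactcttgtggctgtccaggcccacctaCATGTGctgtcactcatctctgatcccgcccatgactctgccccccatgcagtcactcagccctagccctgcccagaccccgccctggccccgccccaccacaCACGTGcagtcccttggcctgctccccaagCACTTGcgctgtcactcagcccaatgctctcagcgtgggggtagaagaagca
Chodl, chr16:78930698-78930997, plus strand: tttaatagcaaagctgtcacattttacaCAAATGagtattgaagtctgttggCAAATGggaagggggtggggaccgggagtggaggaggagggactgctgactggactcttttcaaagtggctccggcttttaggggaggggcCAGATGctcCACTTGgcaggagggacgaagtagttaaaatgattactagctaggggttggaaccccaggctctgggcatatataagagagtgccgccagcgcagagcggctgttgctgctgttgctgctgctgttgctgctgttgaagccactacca
The Cdh15 and Chodl windows each held 4 matches, Fgfr4 held 2, 1 of the Calcr windows held 1, and the Pax7, Myf5 and Sdc4 windows held 0. CANNTG was in 72.3% of all 32851 windows of that length, with a median of 1 match, and in 4 of the 8 windows here. The CAGCTG form was in 0 of the 8 windows and in 16.3% of all windows. A match is a description of the letters and says nothing of binding.

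Pax7, Myf5 and Myod1, the transcription factors of the list, had most of their UMIs in the satellite cell-like class: 97.1%, 93.4% and 85.7% of those of quadriceps and 96.2%, 92.6% and 100% of those of diaphragm. Pax7 had 407 UMIs in the 204 satellite cell-like barcodes of quadriceps (380 CPM, interval 344 to 419), 1 UMI in 2446 FAP-like barcodes (0.0393 CPM), 2 UMIs in Schwann cell-like barcodes (1.61 CPM) and 1 UMI in 1398 smooth muscle or pericyte-like barcodes. A satellite cell-like barcode had between 0 and 11 Pax7 UMIs with a median of 2. In diaphragm the class had 25 Pax7 UMIs (232 CPM, 150 to 342), 0 to 6 per barcode with a median of 0, and all other barcodes together had 1. The fold over FAP-like barcodes rested on a single UMI in each library, with a ratio of 9672 (interval 1726 to 382958) in quadriceps and 4527 (741 to 185859) in diaphragm. The remaining Pax7 UMIs of quadriceps were 6 in T cell-like and 2 in NK cell-like barcodes.

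Myf5 had 492 UMIs in quadriceps satellite cell-like barcodes (460 CPM, 420 to 502) and 1 in FAP-like barcodes. In diaphragm it had 50 UMIs (464 CPM, 344 to 611) and 4 in FAP-like barcodes, which lay in 2 barcodes. Myod1 had 258 UMIs (241 CPM, 212 to 272) against 0 in FAP-like and 0 in Schwann cell-like barcodes, so with 3 counts over the class as the floor its level was at least 2044-fold above FAP-like barcodes and, against Schwann cell-like barcodes, at least 99.8-fold higher. Diaphragm had 18 Myod1 UMIs (167 CPM, 98.9 to 264), again with 0 in FAP-like barcodes. Myod1 was seen in 84 of 204 quadriceps barcodes (41.2%, interval 34.4 to 48.3%), Pax7 in 153 (75.0%) and Myf5 in 168 (82.4%), while in 445 lymphocyte-like barcodes, taken as the background, the counts were 2, 3 and 2 (0.449%, 0.674% and 0.449%, median depth 3599 UMIs). Without 2 cycling barcodes that carry most of the 10 genes, described below, the background counts were 0, 1 and 1 of 443. Those remaining counts lay in 1 B cell-like barcode with 5 of the 10 genes and 1 NK cell-like barcode with 7. Both also had Des, and whether they held more than 1 cell was not tested beyond doublet calls over the whole library.

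At least 1 of Pax7, Myf5 and Myod1 was seen in 195 of the 204 quadriceps satellite cell-like barcodes (95.6%) and in 17 of the 20 in diaphragm (85.0%). All 3 were seen in 57 and 3 barcodes. At least 1 of the factors was seen in 2 of 2446 and 3 of 1594 FAP-like barcodes and in 3 of 190 Schwann cell-like barcodes, and all 3 together in 0 of them. Once each barcode was thinned at random to 1000 UMIs, which puts all barcodes at the same depth, 131 of the 204 quadriceps barcodes still had at least 1 of the 3 factors (64.2%), 6 of the 20 diaphragm barcodes did (30.0%), and 0 FAP-like or Schwann cell-like barcodes did.

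Among surface molecules, Cdh15 (M-cadherin, which joins satellite cells to the fiber) had 287 UMIs in quadriceps (268 CPM, 238 to 301), 3 in FAP-like and 0 in Schwann cell-like barcodes. Its diaphragm level of 260 CPM (28 UMIs, 173 to 375) stood beside 0 UMIs in FAP-like barcodes, a difference of at least 1690-fold. Cdh15 was seen in 135 of 204 and 14 of 20 satellite cell-like barcodes. Fgfr4, a fibroblast growth factor receptor, had 334 UMIs in quadriceps (312 CPM, 279 to 347) with 92.8% of all its UMIs in the class, and 38 in diaphragm (352 CPM, 249 to 484) with 97.4%. Calcr, the calcitonin receptor that helps keep satellite cells quiescent, had only 79 UMIs (73.8 CPM, 58.4 to 92.0) and 9 UMIs (83.5 CPM, 38.2 to 158), but of its 81 and 9 UMIs in all barcodes these were 97.5% and 100%. Calcr was seen in 58 of 204 quadriceps barcodes and in 4 of 20 in diaphragm, where 1 barcode held 5 of the 9 UMIs.

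**Figure D1:**
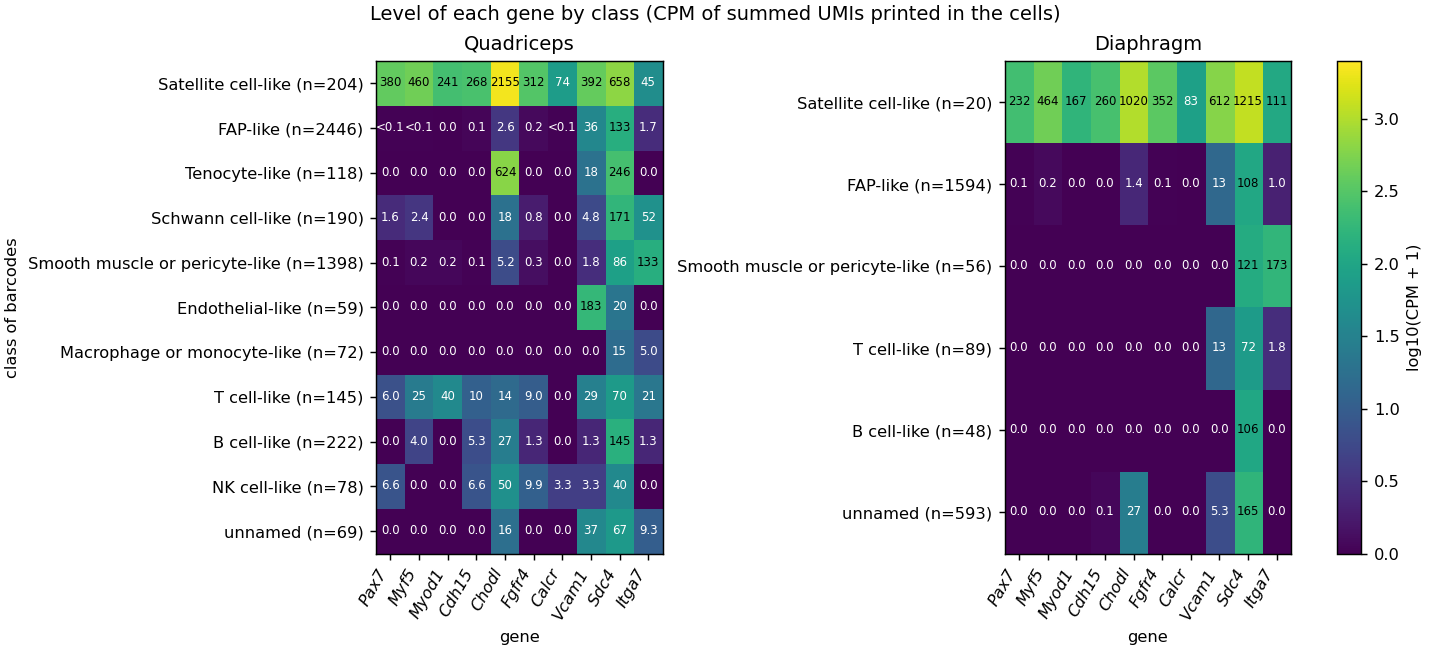
Level of each of the 10 genes (columns) in each class of at least 20 barcodes (rows) of quadriceps and diaphragm, with CPM of summed UMIs printed and log10(CPM + 1) as color. Pax7, Myf5, Myod1, Cdh15, Fgfr4 and Calcr are bright in the top row only, while Chodl is also at 624 CPM in tenocyte-like barcodes, Vcam1 at 183 CPM in endothelial-like barcodes, and Itga7 at 133 CPM in smooth muscle or pericyte-like barcodes of quadriceps.

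Chodl (chondrolectin, a membrane lectin) had 2307 UMIs in quadriceps satellite cell-like barcodes (2155 CPM, 2068 to 2245), between 0 and 32 per barcode with a median of 10. It was 831-fold above FAP-like barcodes (66 UMIs, interval 650 to 1078) and 122-fold above Schwann cell-like barcodes (22 UMIs, 80.2 to 195). Of the 204 barcodes, 200 had Chodl, and after thinning to 1000 UMIs 170 still did (83.3%). The share in lymphocyte-like barcodes was 6 of 445 (1.35%). Chodl was found in another class too. Tenocyte-like barcodes, the tendon fibroblasts, had 644 UMIs (624 CPM, 576 to 674) in 55 of 118 barcodes, 20.2% of all Chodl UMIs of quadriceps, and 0 of those 55 had a UMI of Pax7, Myf5 or Myod1. The satellite cell-like level was 3.46-fold higher than the tenocyte-like level (3.16 to 3.78). In diaphragm, where no tenocyte-like class was found, 110 Chodl UMIs (1020 CPM, 838 to 1229) fell in the satellite cell-like class and 196 (58.9% of the total) in barcodes left unnamed. Of these, 558 of 593 were in a cluster with FAP markers, led by Slit2, Fbn2, C1qtnf3 and Thbs4, the last a tenocyte naming marker. There, 86 barcodes had Chodl, and 0 of them had 1 of the 3 factors. The unnamed barcodes were at 26.8 CPM. Their summed tenocyte markers were at 4383 CPM, against 658 CPM in FAP-like barcodes of diaphragm and 31469.5 CPM in tenocyte-like barcodes of quadriceps.

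Vcam1 (an adhesion molecule bound by integrin on leukocytes) was 392 CPM in quadriceps satellite cell-like barcodes (420 UMIs, 356 to 432) and 612 CPM in diaphragm (66 UMIs, 473 to 779). FAP-like barcodes were at 36.4 CPM (34.1 to 38.9) and 13.2 CPM (11.6 to 14.9), so the class was 10.8-fold higher in quadriceps (9.57 to 12.1) and 46.5-fold higher in diaphragm (34.9 to 61.2). Since FAP-like barcodes were so many, they held 62.2% of the Vcam1 UMIs of quadriceps and 69.5% of those of diaphragm. Vcam1 was seen in 155 of 204 satellite cell-like barcodes of quadriceps (76.0%) and in 513 of 2446 FAP-like barcodes (20.97%), against 10 of 445 lymphocyte-like barcodes (2.25%). After thinning these were 32.4%, 3.39% and 0.449%. FAP-like clusters of quadriceps were uneven. Vcam1 had 0 UMIs in the 31 barcodes of the cluster led by Cxcl1, where 3 counts would be 8.64 CPM. In diaphragm that cluster was at 10.6 CPM (79 UMIs in 555 barcodes). The quadriceps clusters led by Fam167a and C4b were at 10.4 and 90.3 CPM. Endothelial-like barcodes ranked next to the satellite cell-like class with 183 CPM (129 to 252), 37 UMIs that all lay in the cluster of 39 barcodes led by Cytl1. That cluster alone was at 328 CPM on the same 37 UMIs, near the 392 CPM of the satellite cell-like class. Schwann cell-like barcodes were at 4.83 CPM.

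Sdc4 (syndecan-4, a heparan sulfate proteoglycan that serves as a growth factor co-receptor) was detected in 10 of 10 classes of at least 20 barcodes in quadriceps. It was 658 CPM in quadriceps satellite cell-like barcodes (704 UMIs, 610 to 708), 246 CPM in tenocyte-like (217 to 278), 171 CPM in Schwann cell-like (148 to 195), 145 CPM in B cell-like (119 to 175) and 133 CPM in FAP-like barcodes (128 to 137). The satellite cell-like interval lay above all others. The B cell-like interval overlapped those of Schwann cell-like and FAP-like barcodes, so these neighbours in the order did not differ beyond counting error. In diaphragm the class was at 1215 CPM (131 UMIs, 1016 to 1442) and FAP-like barcodes at 108 CPM. The class was 4.96-fold above FAP-like barcodes in quadriceps (4.57 to 5.38), 11.2-fold in diaphragm (9.35 to 13.4) and 3.85-fold above Schwann cell-like barcodes (3.30 to 4.51). Only 11.04% and 3.63% of the Sdc4 UMIs of the libraries were in the class.

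Itga7 (integrin alpha 7, a laminin receptor) was the member for which the class did not lead. Smooth muscle or pericyte-like barcodes of quadriceps were at 133 CPM (2483 UMIs, 128 to 139) and held 93.1% of its UMIs. Schwann cell-like barcodes were at 51.5 CPM (64 UMIs, 39.7 to 65.8) and satellite cell-like barcodes at 44.8 CPM (48 UMIs, 33.1 to 59.4), and these 2 classes did not differ beyond counting error (ratio 0.87, interval 0.586 to 1.29). Against smooth muscle or pericyte-like barcodes the ratio was 0.337 (0.247 to 0.448). Against FAP-like barcodes, at 1.69 CPM, Itga7 was 26.5-fold higher (17.2 to 41.0), a log2 difference of 4.09 that was 2.24 when each library was clustered on its own. In diaphragm 12 UMIs gave 111 CPM (57.5 to 194) and smooth muscle or pericyte-like barcodes were at 173 CPM (139 to 213), with overlapping intervals. The smooth muscle or pericyte-like class had a median mitochondrial share of 17.6% in quadriceps, with 20 of 1398 barcodes within 5%.

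**Figure D2:**
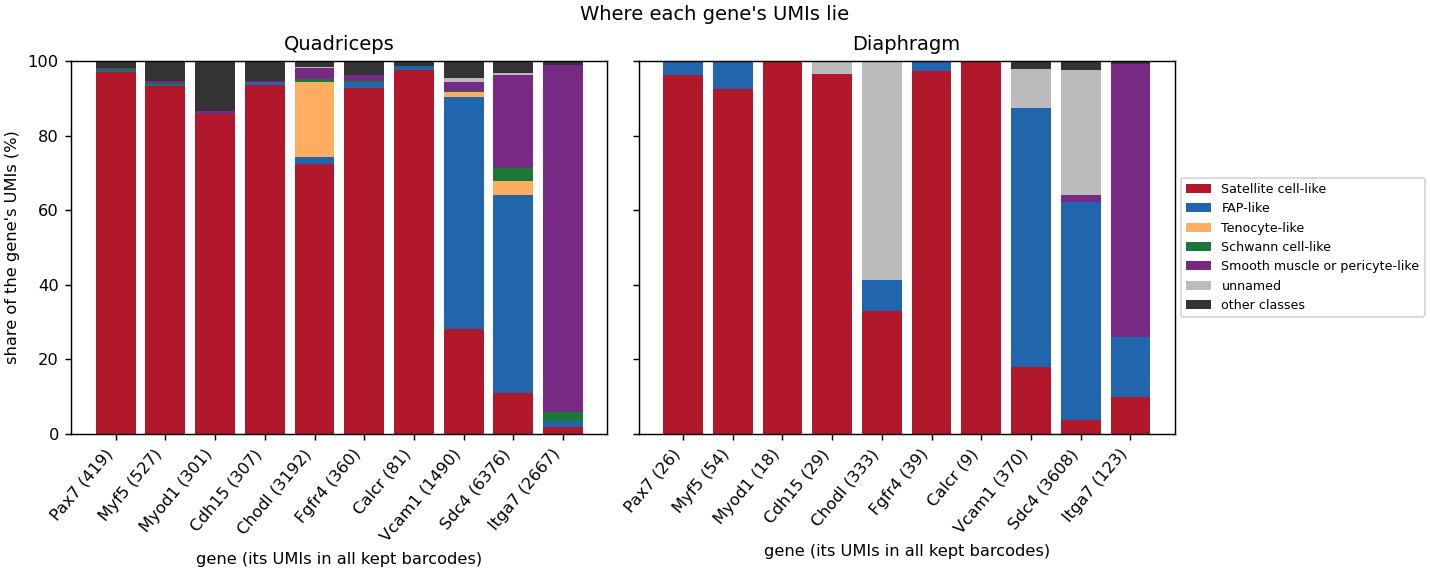
Share of each gene's UMIs (%) by class in quadriceps and diaphragm, with the gene's UMIs over all kept barcodes in parentheses. The satellite cell-like share of quadriceps falls from 97.5% for Calcr and 97.1% for Pax7 to 28.2% for Vcam1, 11.04% for Sdc4 and 1.80% for Itga7.

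Over the whole list, all 10 genes were at least 2-fold higher in satellite cell-like than in FAP-like barcodes of quadriceps, on log2(CPM + 1), with a median log2 difference of 7.91. Of the 12619 genes with at least 20 UMIs in both classes together, 9.3% were that much higher and the median log2 difference was -0.13. In diaphragm 8 of the 10 reached 20 UMIs and all 8 were higher, where 12.2% of 12099 genes were. The other 2 were Myod1 (18 UMIs against 0) and Calcr (9 against 0). Against Schwann cell-like barcodes of quadriceps 9 of 10 were at least 2-fold higher, where 9.87% of 9249 genes were, and Itga7 was the exception. Against smooth muscle or pericyte-like barcodes 9 of 10 were higher, where 22.1% of 11733 genes were, and Itga7 was lower. A gene with under 20 UMIs in the other class reached the minimum only with satellite cell-like UMIs, which favoured a higher call. That held for 6 of the 10 genes against FAP-like barcodes of quadriceps (Pax7, Myf5, Myod1, Cdh15, Fgfr4 and Calcr), for 4 of 8 in diaphragm, for 7 of 10 against Schwann cell-like barcodes and for 6 of 10 against smooth muscle or pericyte-like barcodes. The counts and the median are therefore a description of the list and no support for it, and the comparisons share the satellite cell-like barcodes.

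**Figure D3:**
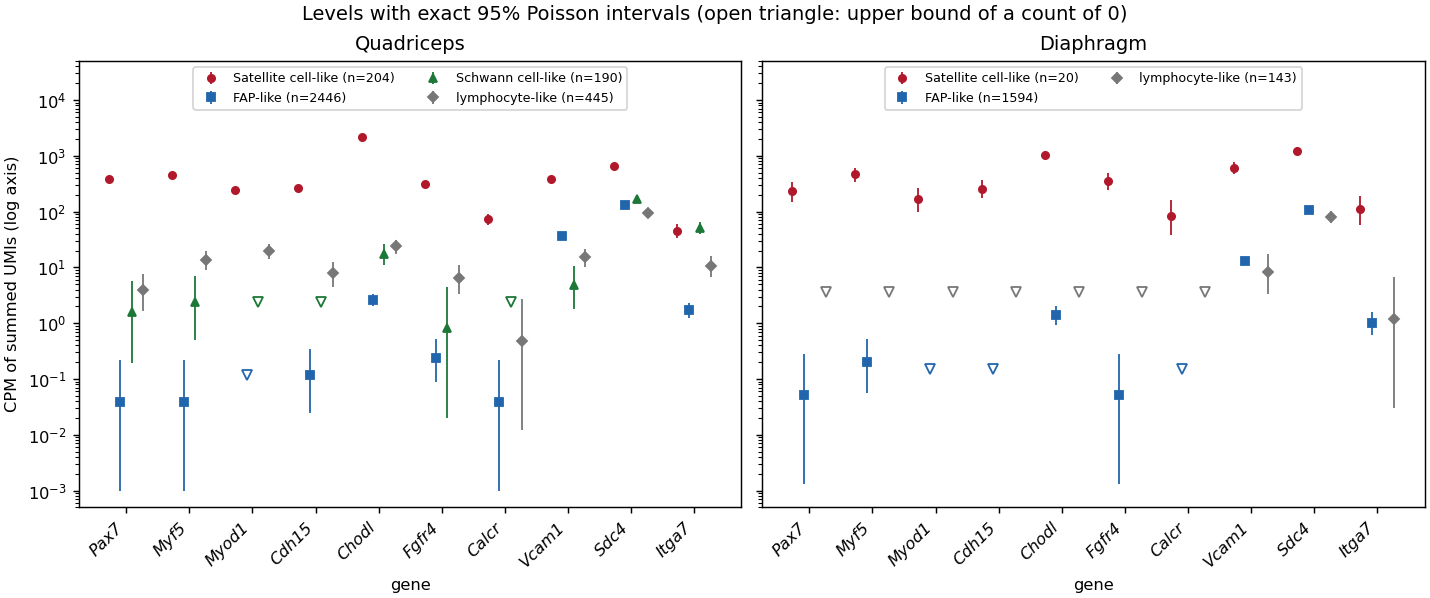
Level of each gene (CPM of summed UMIs, log axis) with exact 95% Poisson intervals in satellite cell-like, FAP-like, Schwann cell-like and lymphocyte-like barcodes, where an open triangle is the upper bound of a count of 0. Schwann cell-like barcodes are drawn for quadriceps only, as diaphragm had 2 of them. Of the classes drawn, satellite cell-like points lie highest in both panels except for Itga7 of quadriceps, at 44.8 CPM beside 51.5 CPM in Schwann cell-like barcodes.

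Levels in satellite cell-like barcodes were set side by side for the tissues. With 1 library each, a tissue difference cannot be told apart from one of the pooled animals or of the library. Chodl was lower in diaphragm, 1020 against 2155 CPM (ratio 0.473, interval 0.387 to 0.573). Itga7 was higher, 111 against 44.8 CPM, but on 12 and 48 UMIs (ratio 2.48, 1.20 to 4.74). These were the 2 of 10 genes at least 2-fold apart, where 31.7% of 6392 genes were at least 2-fold apart either way, a larger share than that of the list. Sdc4 (ratio 1.85, 1.52 to 2.23) and Vcam1 (1.56, 1.18 to 2.03) were higher in diaphragm and Pax7 (0.610, 0.390 to 0.913) lower by less than 2-fold. With the mean of the barcodes' CPM in place of summed UMIs, Sdc4 passed 2-fold (log2 difference 1.19). For Myf5 (1.01, 0.739 to 1.35), Myod1 (0.693, 0.404 to 1.12), Cdh15 (0.969, 0.632 to 1.43), Fgfr4 (1.13, 0.785 to 1.58) and Calcr (1.13, 0.499 to 2.26) the interval held 1. The diaphragm values come from 20 barcodes only. The 4 barcodes richest in a gene held 75.0% of its UMIs for Itga7, 72.0% for Pax7, 68.0% for Myf5, 53.0% for Vcam1, 48.9% for Sdc4 and 48.2% for Chodl, against 16.7%, 8.35%, 8.54%, 9.52%, 9.09% and 5.11% among the 204 of quadriceps. With those 4 left out in each tissue, Itga7 was at 38.1 CPM in diaphragm and 38.3 CPM in quadriceps, Vcam1 at 386 and 368 CPM, and Sdc4 at 773 and 618 CPM. Pax7 was then at 92.0 and 361 CPM, Myf5 at 198 and 434 CPM, and Chodl at 663 and 2105 CPM. The 4 richest are a larger part of 20 barcodes than of 204. By itself this raises their share in diaphragm and, once they are left out, lowers the diaphragm values more. The shares and the trimmed values therefore cannot decide whether a tissue difference rests on a few barcodes. The median of all genes was shifted by -0.30 on the log2 scale in this comparison.

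The class was also described by mitochondrial share. When the quadriceps barcodes were split at the class median of 7.22%, Pax7 was 366 CPM in the 102 lower and 400 CPM in the 102 higher barcodes, Myf5 478 and 434 CPM, Cdh15 249 and 295 CPM, Chodl 2055 and 2293 CPM, and Sdc4 651 and 666 CPM. Itga7, with 23 and 25 UMIs, was at 36.9 and 55.9 CPM. The 20 diaphragm barcodes, split at 5.90%, were less even. Myf5 was 613 CPM in the 10 lower and 203 CPM in the 10 higher barcodes (42 and 8 UMIs), Calcr 117 and 25.4 CPM (8 and 1 UMIs), Vcam1 701 and 458 CPM and Chodl 861 and 1297 CPM, while Pax7 was 219 and 254 CPM. The part of mitochondrial share in these values was not tested.

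Detection over single barcodes was compared with what independence gives, which is the product of the 2 genes' numbers of barcodes over the total. Over all 5010 quadriceps barcodes thinned to 1000 UMIs, Pax7 and Chodl were seen together in 55 barcodes where 2.82 were expected (19.5 times), Myf5 and Chodl in 72 where 3.35 were expected (21.5 times), and Pax7 and Myf5 in 25 where 0.971 were expected. Of the 27 pairs with at least 1 expected barcode, 21 were seen together over 2 times as often, with a median of 4.52 times. The 6 others all involved Itga7, which with Fgfr4 was at 0.512 times, with Vcam1 at 1.01 and with Myf5 at 1.05. The other 18 pairs, each expected in less than 1 barcode, were all seen. Pairs share genes and barcodes, so these ratios are a description.

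Inside the 204 satellite cell-like barcodes the same pairs were close to independence. Of 44 pairs with at least 1 expected barcode 0 were over 2 times, and the median was 1.04 (range 0.392 to 1.96). Pax7 and Myf5 were together in 25 barcodes where 23.8 were expected, and Myf5 and Myod1 in 10 where 12.3 were expected. Without thinning the median was 1.03 over 45 pairs. In diaphragm thinned barcodes allowed only 3 pairs with an expectation of 1, of which 2 were over 2 times (Chodl with Sdc4 4.14 times, Sdc4 with Itga7 2.33 times), and within the class 0 of 19 were.

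**Figure D4:**
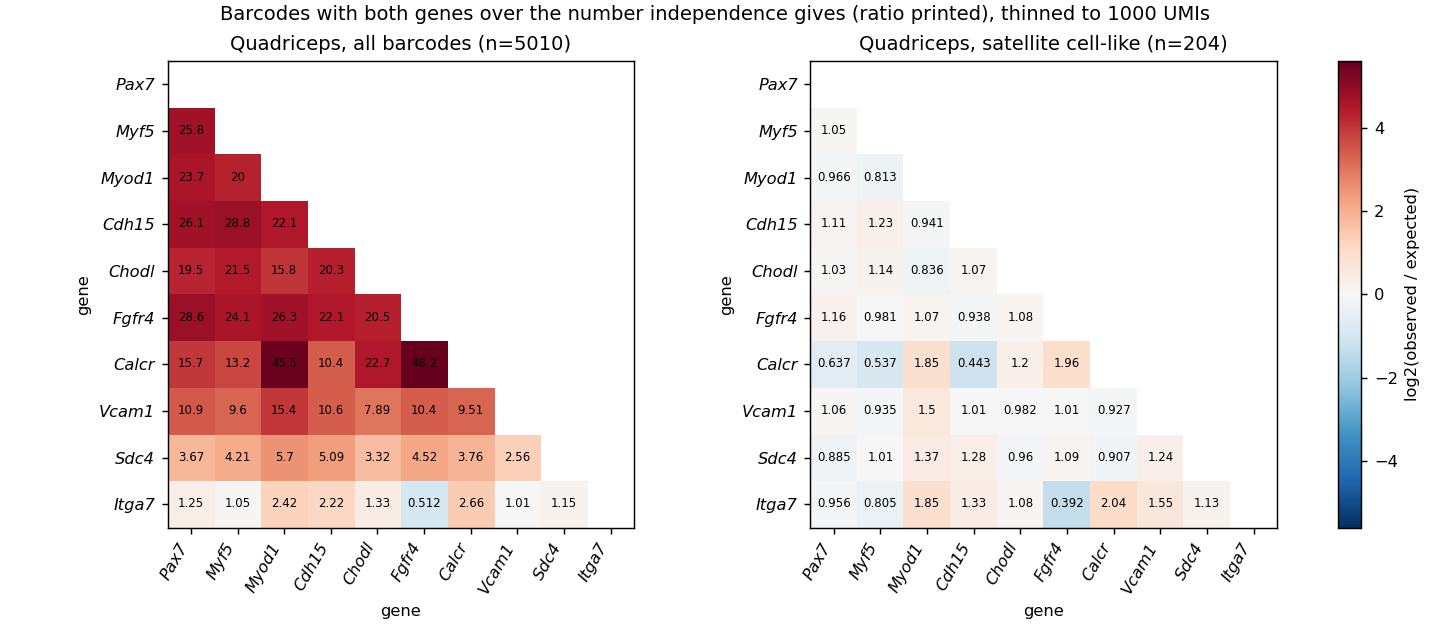
Number of quadriceps barcodes in which both genes of a pair were seen over the number expected from independence (ratio printed, log2 as color), thinned to 1000 UMIs, for all 5010 barcodes and for the 204 satellite cell-like barcodes. Over all barcodes the ratio is 21.5 for Myf5 with Chodl and 1.15 for Sdc4 with Itga7, and within the class the median over pairs is 1.04.

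Seeing 3 or more of the 10 genes in a barcode at 1000 UMIs picked out the class with few exceptions. In quadriceps 133 barcodes had 3 or more, of which 132 were satellite cell-like (99.2%, interval 95.9 to 99.98%), and in diaphragm all 11 were (interval 71.5 to 100%). They were 64.7% and 55.0% of the class. The median satellite cell-like barcode had 3 of the 10 genes, and 28 of 204 had 5 or more. At full depth 260 quadriceps barcodes had 3 or more, of which 200 were satellite cell-like (76.9%), 34 were in 2 smooth muscle clusters (22 and 12 barcodes, with median depths of 18268 and 24595.5 UMIs), and 14 were FAP-like. Of those 22 and 12 barcodes, 3 and 0 had Pax7, Myf5 or Myod1, and 1 and 12 had Pdgfra, a FAP marker. In diaphragm 19 of 25 were satellite cell-like (76.0%).

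**Figure D5:**
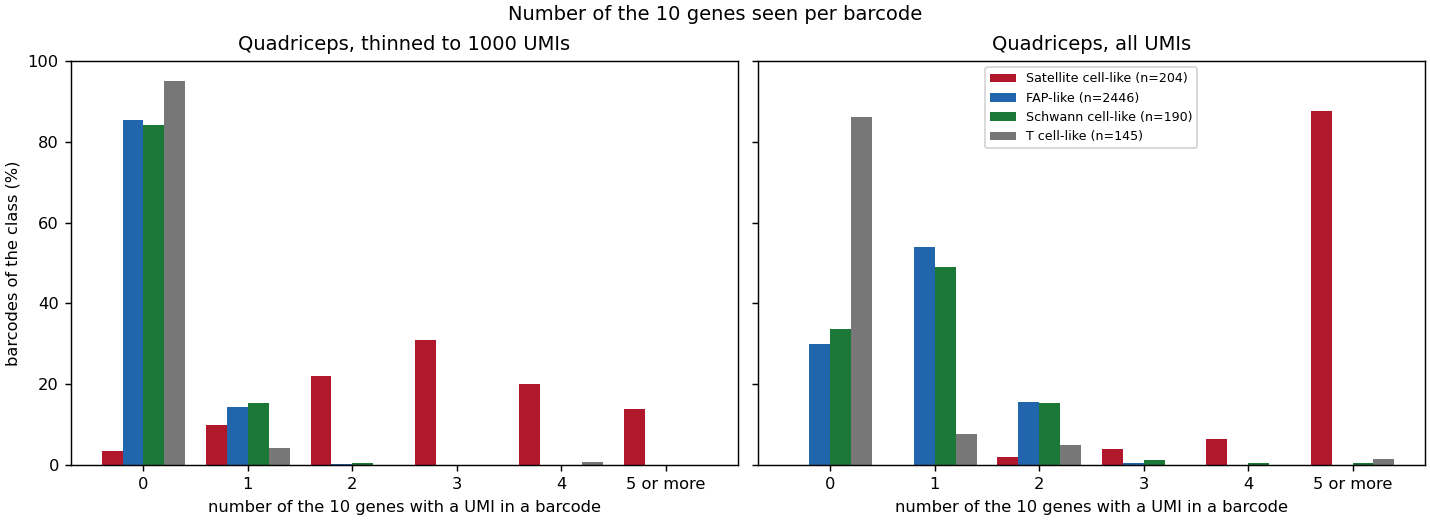
Share of the barcodes of a class (%) by the number of the 10 genes with a UMI, in quadriceps, thinned to 1000 UMIs and with all UMIs, for satellite cell-like, FAP-like, Schwann cell-like and T cell-like barcodes. With all UMIs 87.7% of satellite cell-like barcodes have 5 or more of the genes, and no FAP-like barcode does.

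A small set of barcodes departed from the common pattern, and was chosen after its values were seen. Myog (myogenin, the factor of terminal differentiation) had 473 UMIs in quadriceps satellite cell-like barcodes, all in 4 barcodes with 213, 155, 64 and 41 UMIs, and 4 UMIs in all other barcodes of quadriceps. These 4 had 0 UMIs of Chodl and 0 of Calcr, whereas all 200 others had Chodl. They had 8 to 16 Myod1 UMIs each, against a median of 0 and a highest value of 12 in the 200 others, and together 2 Pax7 UMIs and 1 Myf5 UMI. Their depth was 8088 to 40766 UMIs. The deepest had 213 of the 473 Myog UMIs. It also had 14 UMIs of Pdgfra, a FAP marker that was at 0 in the 3 others. Whether it held more than 1 cell was not tested beyond doublet calls over the whole library. The 4 barcodes also held 91 of the 94 Acta1 UMIs of the class. Without them Myod1 fell to 212 CPM, Pax7 was at 408 CPM and Chodl at 2324 CPM. In diaphragm Myog was at 0 in all 20 satellite cell-like barcodes, which allows a share of up to 15% with a UMI, taken as 3 barcodes of 20.

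A further 2 quadriceps barcodes with most of the 10 genes were clustered with T cell-like barcodes. They lay in a cluster led by Top2a and Mki67, the proliferation genes, and accounted for all 40 Myod1 UMIs of the T cell-like class. Each had 8 of the 10 genes, with 19 and 21 Myod1 UMIs, 4 and 2 Pax7 UMIs, 20 and 25 Mki67 UMIs and 32 and 46 Top2a UMIs. Cd3e and Cd3d, which define T cells, were at 0 in both, and Des was at 10 and 83 UMIs. Myog was at 0 in both. With 17384 and 50145 UMIs they were deep barcodes. Whether they held more than 1 cell was not tested beyond doublet calls over the whole library. The 204 quadriceps satellite cell-like barcodes had 2 Mki67 UMIs and 0 Top2a UMIs.

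Of 31 further myogenic genes, 25 reached 20 UMIs in quadriceps, 20 were at least 2-fold higher in satellite cell-like than FAP-like barcodes and 2 were lower, with a median log2 difference of 3.21. Over all genes 9.3% were higher and 22% lower. In diaphragm 16 of 22 were higher, where 12.2% of all genes were, and 4 were lower on log2(CPM + 1), where 45.7% were. Of these 4, Musk, Six4 and Mef2c had 0 UMIs in the class and at the floor of 3 counts were not shown to be 2-fold lower. In quadriceps, against Schwann cell-like barcodes, 17 of 24 were higher and 2 lower, where 9.87% and 21.2% of all genes were. Des, Musk, Heyl, Megf10, Dag1, Cd82, Sox8 and Pax3 of that list had served to name the class. All of the list could take part in the clustering. Myog, Pax3 and Megf10, with 1, 1 and 11 UMIs in FAP-like barcodes of quadriceps, reached the minimum only with satellite cell-like UMIs, which favoured a higher call. Others did so against Schwann cell-like barcodes, such as Msc (3 UMIs there). These counts are therefore a description. Among the transcription factors 7 of 9 were higher in quadriceps, 1 of them Myog, whose UMIs in the class all lay in 4 barcodes. Pax3, the paralog of Pax7, had 41 UMIs in quadriceps (38.3 CPM) and 18 in diaphragm (167 CPM), a log2 difference of 2.10 between the tissues. The 4 richest barcodes held 11 of the 41 and 11 of the 18 UMIs, so that difference rests on few UMIs. Pax3 had 1 and 0 UMIs in FAP-like barcodes. The Notch targets Heyl (217 against 7.62 CPM) and Hey1 (50.4 against 3.42 CPM) were higher too. Among receptors and adhesion molecules 10 of 13 were higher, led by Megf10 (92.5 against 0.432 CPM), Cd82 (397 against 5.46 CPM), Cxcr4 (74.7 against 0.825 CPM) and Notch3 (205 against 6.64 CPM). Of the fusion and differentiation genes only Tnnt1, Acta1 and Des could be compared in quadriceps, and all 3 were higher. Without the 4 Myog barcodes Acta1 was at 3.02 against 1.34 CPM, no longer 2-fold apart on log2(CPM + 1) (0.78), while Tnnt1 (5.48) and Des (4.04) were. Des, the muscle intermediate filament, was at 497 and 770 CPM in the class against 30.0 and 10.3 CPM in FAP-like barcodes. Tnnt1 had 163 UMIs of which the 4 richest barcodes held 46.6%. Myh3, Myh8 and Ckm, also of the fusion and differentiation genes, had 1, 0 and 0 UMIs in the quadriceps class. Cd34, a surface sialomucin that was a naming marker of the FAP-like class, was lower in both tissues (235 against 1304 CPM in quadriceps and 213 against 1274 CPM in diaphragm). Mef2c was lower in quadriceps (4.67 against 41.6 CPM).

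Levels over 15 profiles (named classes of at least 20 barcodes in each library) were used to find genes with the most similar pattern, by Pearson r of log2(CPM + 1) among 12705 genes with at least 100 UMIs. Pax7 was most like Pde1c (r = 0.993), Gal (0.987) and Edn3 (0.980). Fgfr4 and Cdh15 were most like Gal (0.992 and 0.984), Myf5 most like Fam132b (0.981), Myod1 most like Chrna1 (0.960), a subunit of the muscle acetylcholine receptor, and Calcr most like Chrdl2 (0.970). These genes were among those that led the cluster, and profiles of the same library share depth and free RNA. Chodl, Vcam1 and Sdc4 were most like Megf10 (0.896), Pcdhb21 (0.918) and Farp2 (0.933). Itga7 was most like Tmem51os1 (0.944), Rbm24 (0.943) and Myl1 (0.903). Between members, Pax7 and Fgfr4 had r = 0.990 and Vcam1 and Itga7 r = 0.104. The 15 profiles include only 2 of the satellite cell-like class. For members highest in that class, a high r therefore says mainly that a gene was high in those 2. It does not say so for Itga7, which was highest in smooth muscle or pericyte-like barcodes (133 CPM in quadriceps and 173 CPM in diaphragm).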

How the data were processed

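Single-cell libraries of quadriceps and diaphragm were analysed, 1 of each. The authors deposited raw counts of UMIs per gene and barcode, made with Cell Ranger 3.0.0 on mm10, as the submitters' processing notes and methods give. These matrices were used as deposited, with no value imputed. Barcodes with at least 1000 UMIs were kept. Counts were scaled to 10000 per barcode, and 2000 variable genes other than the 10 members, 20 principal components, 20 neighbours and Leiden resolution 1.0 gave 28 clusters (scanpy 1.11.5, igraph 0.11.9, Python 3.11.15). Clusters were named from fixed marker lists. Doublets were kept, and an alternative left out those called by Scrublet. Levels were summed UMIs of a class scaled to CPM, and intervals came from scipy 1.17.1. A gene entered a comparison with at least 20 UMIs over both classes and was called past 2-fold on log2(CPM + 1). A class at 0 was set to 3 counts over the class for a lower bound. The scripts were tested on simulated data. Members and lists were chosen with earlier results of these data known. The text names all members, up to 4 genes of each group of the myogenic list by fold over FAP-like barcodes, and the 3 genes most like each member, of which it gives some, while genes below 2-fold or at 0 were added after their values were seen.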

Additional observations from a re-analysis of the deposited data

Results flagged for a closer look

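Barcodes under 1000 UMIs took no part in the comparisons, and some of the 10 genes were seen there above the 3 counts that a count of 0 allows. In the 149 such barcodes of quadriceps (113354 UMIs) there were 11 UMIs of Pax7, 8 of Myf5, 31 of Chodl, 5 of Vcam1, 13 of Sdc4 and 9 of Itga7. In the 67 of diaphragm (48248 UMIs) there were 5 UMIs of Sdc4. These barcodes were given no class.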

How the results depend on the processing

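Across the alternatives, 415 folds of members were recomputed, of which 369 stayed within 1.5 times of the value reported and 46 moved by more (22 of them with a pseudocount of 10 CPM), and 0 past 2-fold changed direction. All 10 genes were higher than in FAP-like barcodes of quadriceps in every alternative except a limit of 5% mitochondrial UMIs, where 9 genes could be compared and 9 were higher. That limit left 23 and 4 satellite cell-like barcodes and no diaphragm comparison. The number of genes 2-fold apart between tissues was 2, became 1 with 10 principal components (Chodl at a log2 difference of -0.998) and 3 with the mean of barcodes' CPM (Sdc4 at 1.19). Among single log2 differences from FAP-like barcodes, Itga7 of quadriceps went from 4.09 to 2.24 with each library clustered on its own, Chodl of diaphragm from 8.74 to 6.78 with 10 principal components, and Vcam1 of quadriceps from 3.39 to 2.69 at 5% mitochondrial UMIs. Itga7 against Schwann cell-like barcodes, below 2-fold, went from -0.20 to 0.42 with the mean of barcodes' CPM. The share of barcodes with 3 or more of the genes that were satellite cell-like in quadriceps was 99.2%, 100% with 10 principal components, 100% at 5% mitochondrial UMIs (12 of 12) and 76.9% without thinning. Pairs seen together over 2 times as often as independence gives were 21 of 27 in quadriceps and 2 of 3 in diaphragm, against 2 of 3 and 0 of 1 at 5% mitochondrial UMIs. In diaphragm they were 4 of 15 without thinning and 4 of 6 when thinned to 2000 UMIs. The cause was not tested. Scrublet called 98 of 5159 quadriceps barcodes and 4 of 2499 in diaphragm (0.160%), too few to have worked there. Among satellite cell-like barcodes it called 2 of 204 in quadriceps and 0 of 20 in diaphragm. Its calls for the Myog, cycling, B cell-like and NK cell-like barcodes described above are not given here. The values without the 4 Myog barcodes, without the 4 richest barcodes and without the 2 cycling barcodes were alternatives chosen after seeing the data. No paired analysis was possible because each tissue had 1 library and no test was run. Depth limits Calcr and Itga7 most, with 9 and 12 UMIs in the diaphragm class.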
